A study of Mus musculus with 151 samples.

Results

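Corpus luteum genes were followed through the ovary and its cells in mice conceived naturally (Natural) or by IVF. The set was 7 genes chosen by name (Prlr, Ptgfr, Akr1c18, Sfrp4, Parm1, Oxtr and Hsd11b1), out of 35976 gene names, and all 7 were present in each of the 7 count tables. The rule that selects them uses names and no measured value, although they were named with earlier results of these data known.

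The corpus luteum forms from the granulosa and theca cells of a follicle after ovulation and secretes progesterone. In rodents prolactin acts through its receptor to keep luteal cells steroidogenic, whereas prostaglandin F2α acts through its own receptor to bring luteal function to an end. That decline includes a rise of 20α-hydroxysteroid dehydrogenase, which turns progesterone into a much weaker steroid.

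Prlr encodes the prolactin receptor, Ptgfr the prostaglandin F2α receptor and Oxtr the oxytocin receptor. Akr1c18 encodes 20α-hydroxysteroid dehydrogenase, and Hsd11b1 encodes an enzyme that regenerates active glucocorticoid from its inactive form. Sfrp4 encodes a secreted protein that binds Wnt ligands, and Parm1 encodes a mucin-like membrane protein that has been linked to regression of reproductive tissues.

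RNA-seq covered 4 Natural and 6 IVF fetal ovaries at E18.5, 4 Natural and 5 IVF adult ovaries aged 12 weeks, 5 ovaries per group aged 39 weeks, and primordial germ cells (PGCs) at E13.5 (4 and 5). Single oocytes were taken at 12 weeks (36 and 40) and 39 weeks (9 and 10), and pooled cumulus cells, the granulosa-derived cells around the oocyte, at 12 weeks (5 and 5). All were female offspring of CF-1 mothers and B6/SJL fathers, and no other genotype was given. Natural embryos developed in mated females, whereas IVF embryos came from superovulated oocytes that were fertilized in vitro, cultured to blastocysts and transferred to pseudopregnant CF-1 females, so superovulation, culture and transfer cannot be told apart. Natural replicate 5 of the 39-week ovaries carried 40 weeks in other labels, and the methods give in one place a later day of collection for IVF than for Natural fetuses. Pups of the adult cohorts were delivered by cesarean section and fostered. Each adult ovary library came from part of 1 ovary, and the stage of the estrous cycle was not given for these libraries. Adult females used for hormone measurements were killed at proestrus, and whether they gave these ovaries was not stated. Oocytes and cumulus cells came from superovulated females. In whole tissue, fewer luteal cells and less RNA per luteal cell cannot be told apart.

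Total counts ranged from 6995713 to 14830788 per fetal ovary, from 2839022 to 43363799 at 12 weeks and from 18079970 to 38751638 at 39 weeks, and the lowest was that of 12-week IVF replicate 4. Levels are CPM (reads of a gene scaled to a common library size) after TMM scaling, except that single oocytes were scaled by their total counts alone. A gene was called at an adjusted p below 0.05. Some libraries stood apart in markers of other cell types. Summed CPM of 8 oviduct and epithelium markers was 9266 in 39-week IVF replicate 1, against 59.5 to 243 in the other 39-week ovaries. At 12 weeks the same sum was 3552 to 8028 in Natural and 93.3 to 3170 in IVF, so that every Natural ovary was above every IVF ovary. Granulosa markers summed to 1424 to 2176 in Natural and 1970 to 4788 in IVF at 12 weeks, and to 741 to 2417 and 1460 to 4161 at 39 weeks. The part of these differences in the results was not tested.

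Promoter sequence from RefSeq (GRCm38.p6) was at hand for 6 of the 7 genes, in 8 windows because Prlr had 3 starts. The 250 bases before the start are printed for Akr1c18, Ptgfr and 1 start of Prlr, 3 genes whose levels moved together between ovaries at 12 weeks. Of the 3 Prlr starts, the printed one alone had a match to a searched motif. Capitals mark matches to the searched motifs on either strand, which are a GC box (GGGCGG) in the first pair of windows, and in Prlr a cAMP half-site (TGACG) followed by a STAT motif (TTCNNNGAA).
Akr1c18, chr13:4150647-4150896, minus strand: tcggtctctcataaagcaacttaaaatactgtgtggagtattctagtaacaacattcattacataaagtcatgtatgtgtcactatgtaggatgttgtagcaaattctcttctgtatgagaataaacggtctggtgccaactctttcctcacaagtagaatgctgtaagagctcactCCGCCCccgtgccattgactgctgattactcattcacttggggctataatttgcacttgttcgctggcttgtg
Ptgfr, chr3:151837529-151837778, minus strand: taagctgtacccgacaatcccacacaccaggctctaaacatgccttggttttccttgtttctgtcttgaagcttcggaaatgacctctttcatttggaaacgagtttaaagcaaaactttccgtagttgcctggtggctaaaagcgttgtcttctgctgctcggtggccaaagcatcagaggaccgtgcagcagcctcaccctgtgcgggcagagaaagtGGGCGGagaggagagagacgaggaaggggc
Prlr, chr15:10223656-10223905, plus strand: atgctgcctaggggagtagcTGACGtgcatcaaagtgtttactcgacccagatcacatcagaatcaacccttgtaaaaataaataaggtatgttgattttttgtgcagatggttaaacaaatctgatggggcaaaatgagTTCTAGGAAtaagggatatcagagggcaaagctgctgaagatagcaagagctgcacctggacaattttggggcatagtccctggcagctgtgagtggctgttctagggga
The GC box was in 3 of the 8 windows and in 32.7% of all 32851 promoter windows of that length. The STAT motif, the type of site bound by the transcription factors of prolactin signaling, was in 1 of the 8 windows and in 7.02% of all. The half-site was in 1 of 8 and in 17.8% of all. AAGGTCA, the core bound by NR5A and NR4A receptors, the full cAMP element TGACGTCA and the TATA box TATAAA were in 0 of the 8, against 4.08%, 1.55% and 12.4% of all. A match is a description of letters, and these windows cover a small part of each locus.

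The genes themselves lie on chromosome 15 (Prlr, 10177238 to 10349190), chromosome 3 (Ptgfr, 151798610 to 151837528), chromosome 13 (Akr1c18, 4132615 to 4150646, and Sfrp4, 19623175 to 19632825), chromosome 5 (Parm1, 91517700 to 91624011), chromosome 6 (Oxtr, 112473683 to 112491035) and chromosome 1 (Hsd11b1, 193221640 to 193264045). Set per kilobase of exon, the order of the median levels was the same at 12 and 39 weeks. Akr1c18 was highest, at 2362 CPM per kilobase at 12 weeks and 1121 at 39 weeks, followed by Sfrp4 (764 and 712) and Ptgfr (170 and 186). Prlr came next (42.8 and 72.3), then Oxtr (15.5 and 23.6), Parm1 (5.40 and 9.93) and Hsd11b1 (3.5 and 2.57). The ranges of neighbors in this order overlapped over the ovaries of an age, except those of Prlr and Oxtr at 12 weeks. In 39-week IVF replicate 2 Akr1c18 was at 7.90 CPM per kilobase, which was the lowest of the 10 ovaries. Exon length was the union over annotated transcripts.

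In the fetal ovary, which has no corpus luteum, 6 of the 7 transcripts were low, and Parm1 was at a level that overlapped that of adult ovaries. Parm1 ranged from 26.2 to 49.1 CPM over the 10 libraries, Sfrp4 from 14.7 to 28.2, Prlr from 12.3 to 20.0 and Ptgfr from 2.09 to 5.81. Akr1c18, Hsd11b1 and Oxtr did not exceed 1.87 CPM in any fetal ovary, and Oxtr had no count in 2 of 6 IVF libraries. Of the 6 members that passed the filter on low counts (Oxtr did not), edgeR called 0, against 5.43% of all 16415 genes tested. At an unadjusted p below 0.05 the count was also 0, against 24.1% of all genes, and DESeq2 called 0 against 12% of all. None of the 6 had Natural and IVF values that did not overlap, which was so for 8.61% of all genes. Fitted log2 fold changes ran from -0.25 ± 0.54 (SE) for Hsd11b1 to 0.54 ± 0.51 for Akr1c18.

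Among the related genes, 2 of 11 luteal steroidogenesis and cholesterol supply genes rose in fetal IVF ovaries and 0 fell. They were Star, the cholesterol transporter of mitochondria (6.97 ± 1.07 CPM in Natural and 11.5 ± 1.74 in IVF, SD, n = 4 and 6, log2 fold change 0.72 ± 0.19, edgeR adjusted p = 0.042), and Lhcgr, the luteinizing hormone receptor (0.430 ± 0.167 and 2.24 ± 1.24 CPM, 2.33 ± 0.51, adjusted p = 0.024). Natural Lhcgr was near the floor, since 3 counts in these libraries correspond to 0.202 to 0.429 CPM. Ptges, a prostaglandin E synthase, fell by 0.98 ± 0.20 on the log2 scale (adjusted p = 0.018) and was the only called gene of 10 tested in the luteolysis and prostaglandin list. None of the 7 prolactin signaling genes, 5 glucocorticoid and oxytocin partners or 8 Wnt genes was called. Called markers of other cells were Cyp17a1 of theca (log2 fold change 1.28), 4 of 8 oocyte markers (all lower in IVF), 4 of 5 smooth muscle markers (all lower) and Pecam1 of endothelium (-0.45). The part of these markers in the changes of Star, Lhcgr and Ptges was not tested.

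**Figure D1:**
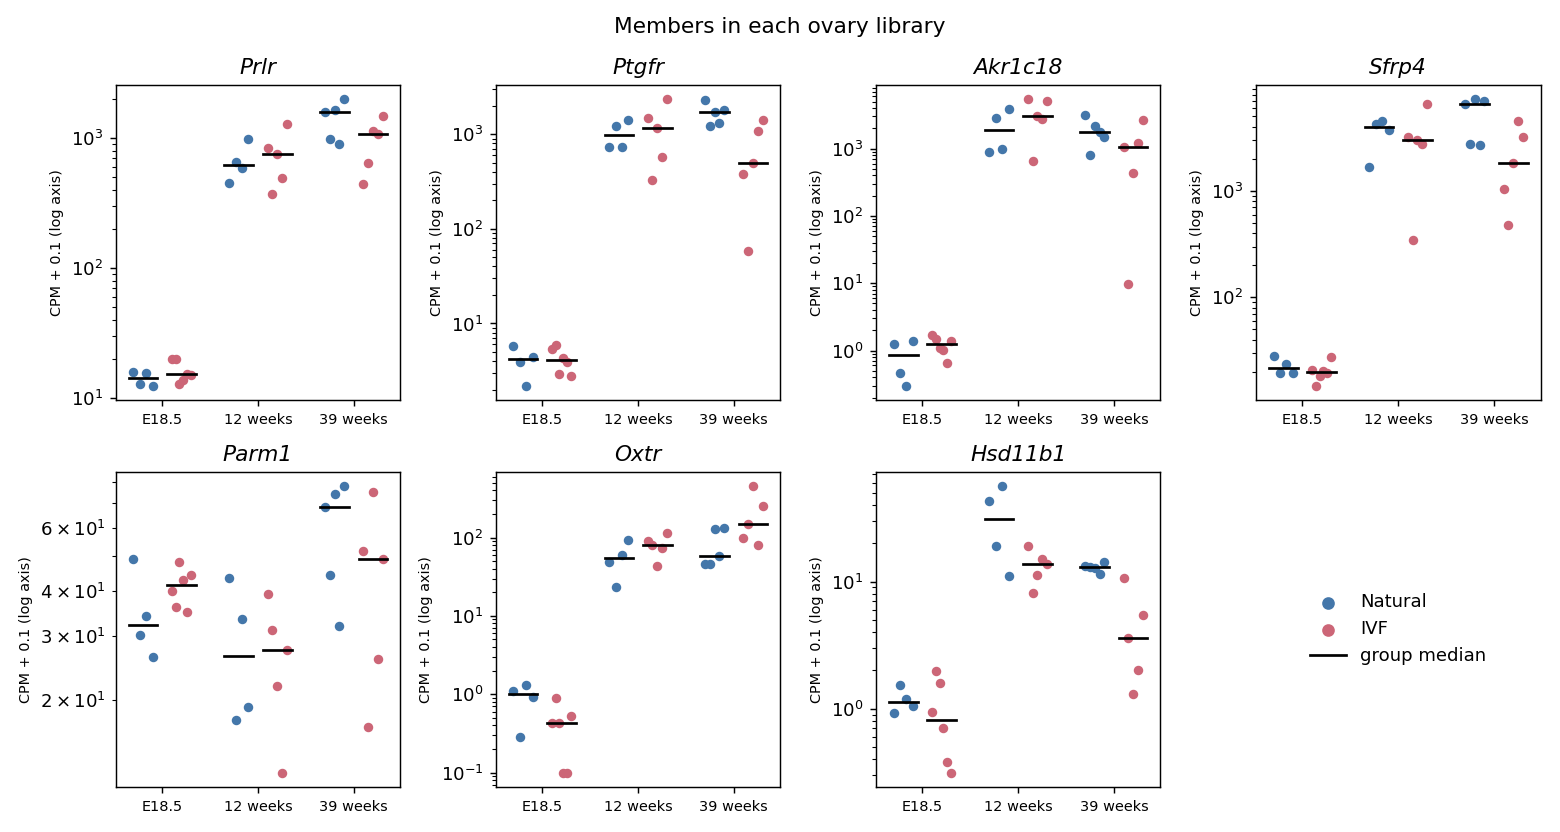
Level of each of the 7 genes (vertical log axis, CPM plus 0.1) in each ovary library of the fetal and both adult ages, with Natural in blue, IVF in red and a black bar at the group median. At 39 weeks the 5 IVF ovaries lie below all 5 Natural ovaries for Hsd11b1, and IVF replicate 2 stands at 9.53 CPM for Akr1c18.

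In every adult ovary Prlr, Ptgfr, Akr1c18, Sfrp4 and Oxtr were at a higher CPM than in any fetal ovary, each table being scaled on its own. The fetal and adult ranges of Parm1 overlapped. Those of Hsd11b1 overlapped through 39-week IVF replicate 3 alone, at 1.20 CPM against a fetal maximum of 1.87. At 12 weeks Prlr was at 452, 656, 586 and 994 CPM in the 4 Natural ovaries and at 842, 371, 753, 491 and 1277 in the 5 IVF ovaries. Ptgfr was at 726, 1207, 738 and 1396 CPM in Natural and at 1483, 330, 1152, 576 and 2340 in IVF. For both receptors the lowest and the highest ovary were IVF, and the groups overlapped. Log2 fold changes were 0.15 ± 0.35 for Prlr and 0.21 ± 0.49 for Ptgfr, with edgeR adjusted p of 0.877 and 0.879.

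Akr1c18 at 12 weeks was at 899, 2851, 989 and 3835 CPM in Natural and at 5403, 654, 3069, 2743 and 5060 in IVF. Sfrp4 was at 1692, 4245, 4492 and 3708 CPM in Natural and at 3193, 344, 3024, 2754 and 6570 in IVF. IVF replicate 2 was the lowest of the 9 ovaries for Prlr, Ptgfr, Akr1c18 and Sfrp4 alike, and IVF replicate 5 was the highest for all of them but Akr1c18, of which it held the next highest level. The log2 fold changes, 0.66 ± 0.60 for Akr1c18 (adjusted p = 0.633) and -0.15 ± 0.61 for Sfrp4 (adjusted p = 0.936), were about the size of their errors or smaller.

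Lower in level, Parm1 was at 17.5 to 43.4 CPM in Natural and 12.5 to 39.1 in IVF at 12 weeks (log2 fold change -0.08 ± 0.34, adjusted p = 0.944). Oxtr was at 23.3 to 93.4 CPM in Natural and 43.9 to 113 in IVF (0.51 ± 0.36, adjusted p = 0.536). Hsd11b1 was at 42.7, 18.9, 56.3 and 11.0 CPM in Natural and at 19.1, 7.98, 11.3, 14.9 and 13.7 in IVF. Its groups overlapped, since Natural replicates 2 and 4 lay within the IVF range. The log2 fold change of Hsd11b1 was -1.27 ± 0.44 (adjusted p = 0.247), and Natural replicates 1 and 3, which had the highest Hsd11b1, also had the highest oviduct and epithelium sums of the table, 6582 and 8028 CPM. Its relation to that sum was not tested.

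In 12-week ovaries edgeR thus called 0 of the 7 members, against 0.00567% of all 17628 genes, or 1 gene. At an unadjusted p below 0.05 there was 1 member, Hsd11b1, against 14.4% of all genes. DESeq2 called 0 of 7, against 4.15% of all genes, and 0 of 7 had groups that did not overlap, against 6.09% of all. The median log2 fold change of the members was 0.15, and that of all genes 0.01. No gene of the steroidogenesis, prolactin, luteolysis, glucocorticoid and oxytocin or Wnt lists was called. Star was at 3038 ± 849 CPM in Natural and 3453 ± 1776 in IVF (SD, n = 4 and 5), and Cyp11a1, which makes pregnenolone from cholesterol, was at 6368 ± 1937 and 7606 ± 3378. Hsd3b1, which makes progesterone, was at 4635 ± 1097 and 5413 ± 1455 CPM. Cish, an inhibitor induced by prolactin through STAT5, was at 125 ± 37.3 CPM in Natural and 52.9 ± 49.1 in IVF (adjusted p = 0.371).

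By 39 weeks 6 of the 7 members had a negative fold change, against 46.5% of all genes, and no member was called by edgeR. Hsd11b1 was at 13.1, 12.8, 12.6, 11.4 and 14.2 CPM in Natural and at 10.5, 3.51, 1.20, 1.93 and 5.33 in IVF. Every IVF ovary was below every Natural ovary, and the Natural ovaries were close to each other. The log2 fold change of Hsd11b1 was -1.52 ± 0.49, and the edgeR adjusted p was 0.15, whereas DESeq2 called it with an adjusted p of 0.0265. IVF replicate 1, the ovary with the high oviduct and epithelium sum, had the highest Hsd11b1 of the IVF group. Without that library the log2 fold change was -2.10 and the edgeR adjusted p was 0.0434.

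The prostaglandin F2α receptor gene Ptgfr was at 2285, 1212, 1700, 1307 and 1807 CPM in 39-week Natural ovaries and at 381, 58.8, 495, 1091 and 1411 in IVF. In IVF, 4 of 5 ovaries were below all Natural ovaries, and replicate 5 lay within the Natural range. Its log2 fold change was -1.27 ± 0.62 (adjusted p = 0.284). Sfrp4 was at 6575, 2776, 7253, 2701 and 7039 CPM in Natural and at 1038, 478, 1837, 4492 and 3175 in IVF. In IVF, 3 of 5 ovaries were below all Natural ovaries (-1.26 ± 0.56, adjusted p = 0.255).

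As a ratio, the largest distance between single 39-week ovaries among the members was that of Akr1c18. It was at 3125, 812, 2157, 1778 and 1509 CPM in Natural and at 1061, 9.53, 429, 1196 and 2653 in IVF. IVF replicate 2 held 380 counts of Akr1c18, against at least 14715 in each other 39-week ovary, although its total was the highest of the 10 at 38751638. In the same ovary Ptgfr was lowest of the 10 at 58.8 CPM, Sfrp4 lowest at 478 and Parm1 lowest at 16.8, whereas Prlr was at 646 CPM and was lower in IVF replicate 1. Its theca markers summed to 2954 CPM, against 302 to 1080 in the other IVF ovaries, and its granulosa markers to 4161. The log2 fold change of Akr1c18 was -0.81 ± 0.90 (adjusted p = 0.64). It was -0.48 without IVF replicate 2 and -1.47 without IVF replicate 5, the highest of the IVF group.

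Prlr at 39 weeks was at 1582, 989, 1649, 908 and 1996 CPM in Natural and at 444, 646, 1134, 1086 and 1489 in IVF (-0.57 ± 0.33, adjusted p = 0.364). Parm1 was at 32.0 to 78.0 CPM in Natural and 16.8 to 75.3 in IVF (-0.44 ± 0.39, adjusted p = 0.544). Oxtr was the member with a positive fold change. It was at 45.4, 45.4, 128, 57.3 and 134 CPM in Natural and at 98.5, 148, 455, 81.3 and 253 in IVF. The oxytocin receptor gene was above all Natural ovaries in 3 of 5 IVF ovaries (1.34 ± 0.52, adjusted p = 0.21), with IVF replicate 3 highest, and without that replicate the value was 0.83.

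Read against the rest of the 39-week table, 0 of 7 members were called by edgeR where 0.262% of all 17186 genes were, and 1 of 7 by DESeq2 where 7.94% of all were. At an unadjusted p below 0.05 there were 3 members (Sfrp4, Oxtr and Hsd11b1), against 19.2% of all genes. Groups that did not overlap were seen for 1 of 7 members and for 5.11% of all genes. The median log2 fold change was -0.81 over the members and 0.03 over all genes. Of the 11 steroidogenesis genes 0 were called and 8 had a negative fold change, with Star at 6471 ± 2391 CPM in Natural and 2502 ± 1298 in IVF (SD, n = 5 and 5, edgeR adjusted p = 0.18, DESeq2 adjusted p = 0.0322), Cyp11a1 at 9315 ± 1938 and 6176 ± 2052 (adjusted p = 0.232) and Scarb1, the receptor that takes up cholesterol from lipoproteins, at 2350 ± 843 and 1335 ± 688 (adjusted p = 0.296). Summed over the list, the level was 20403 to 35025 CPM in Natural and 11652 to 25689 in IVF. Hsd11b2, which inactivates the glucocorticoid that Hsd11b1 regenerates, was at 24.7 ± 16.7 and 52.2 ± 30.3 CPM (adjusted p = 0.283). Stat5a, Stat5b, Socs2 and Cish of prolactin signaling had adjusted p of 0.172 to 0.722. Oxt, the gene of oxytocin itself, did not pass the filter in any ovary table.

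**Figure D2:**
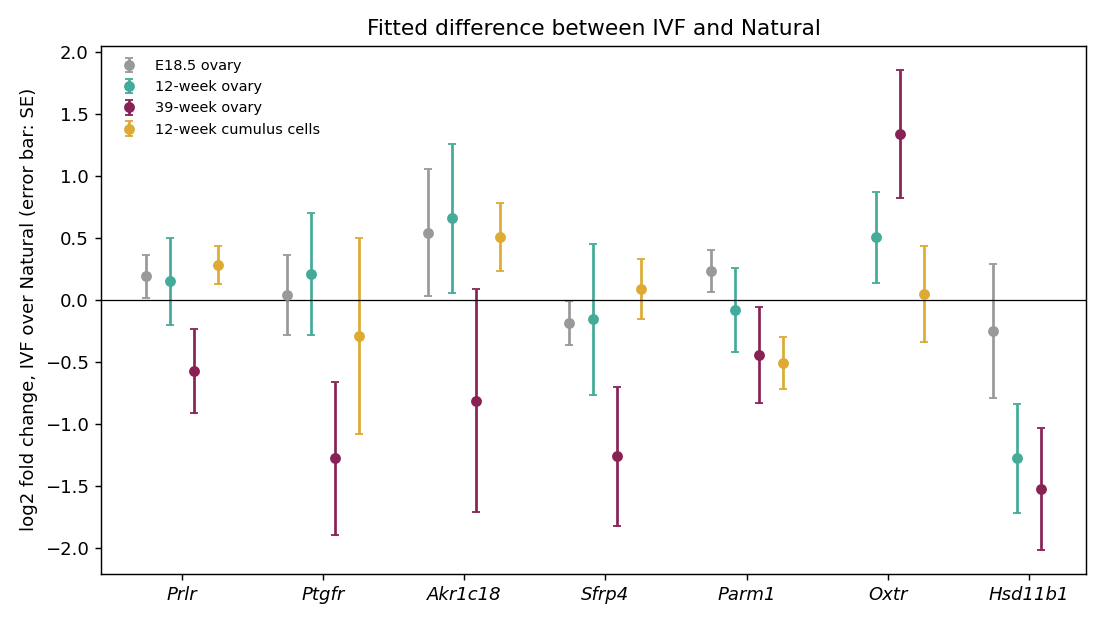
Fitted log2 fold change of IVF over Natural (vertical axis, points) with its SE (bars) for each gene that passed the filter in E18.5, 12-week and 39-week ovaries and in 12-week cumulus cells. In 39-week ovaries 6 of 7 points lie below 0 and Oxtr above it. The SE in adult ovaries runs from 0.33 for Prlr to 0.90 for Akr1c18, both at 39 weeks.

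The IVF effect at 39 weeks was compared with that at 12 weeks in one fit over the 19 adult ovaries. Differences of log2 fold changes (39 minus 12 weeks) were -1.49 ± 0.86 for Ptgfr, -1.49 ± 1.19 for Akr1c18, -1.10 ± 0.89 for Sfrp4, -0.73 ± 0.52 for Prlr, -0.36 ± 0.56 for Parm1, -0.25 ± 0.69 for Hsd11b1 and 0.84 ± 0.68 for Oxtr. edgeR called 0 of the 7, against 0.0157% of all 19066 genes, with adjusted p from 0.349 to 0.884. At an unadjusted p below 0.05 there were 0 members, against 20.1% of all genes, and DESeq2 called 0 against 6.36% of all. A change of the IVF effect between the ages was therefore not shown for any of the 7 genes.

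The spread between ovaries of the same age and conception was described as the SD of log2 CPM within groups. All 7 members were above the median gene at both ages (0.30 at 12 weeks and 0.32 at 39 weeks). Akr1c18 stood at 1.16 at 12 weeks, the 91.1 percentile of all genes tested, and at 2.32 at 39 weeks, the 99.3 percentile. Sfrp4 was at 1.28 and 1.05 (93.3 and 92.4 percentile), and Ptgfr at 0.91 and 1.30 (85.9 and 95.6 percentile). Prlr was the steadiest member at both ages, with 0.61 at each (76.0 and 77.0 percentile). Parm1 was at 0.63 and 0.73, Oxtr at 0.67 and 0.91, and Hsd11b1 at 0.79 and 0.85.

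At 39 weeks all 7 members had a larger SD in IVF than in Natural, as did 62.4% of all genes, and at 12 weeks 4 of 7 did, against 69.1% of all genes. At 39 weeks the SD was 0.72 in Natural and 3.20 in IVF for Akr1c18, 0.37 and 1.81 for Ptgfr, and 0.11 and 1.20 for Hsd11b1. The highest Akr1c18 level was 3.85 times the lowest among Natural and 278 times among IVF ovaries. Without IVF replicate 2 that IVF ratio was 6.18 and the IVF SD 1.08, and for Ptgfr the IVF SD was 0.90. For Hsd11b1 the ratios over all ovaries were 1.25 and 8.79, the latter being 4.45 without IVF replicate 1 and 5.44 without IVF replicate 3. No test was made of these differences in spread.

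The luteal genes did not vary as one block across the 19 adult ovaries, after the mean of each age and conception group was subtracted. Ptgfr and Akr1c18 were closest, with a Pearson r of 0.92 and a Spearman rho of 0.86. They had 0.89 at 12 weeks (9 ovaries), 0.95 at 39 weeks (10 ovaries) and 0.80 without the 2 ovaries farthest from the median of Ptgfr. Sfrp4 followed Ptgfr at 0.84, Prlr at 0.80 and Akr1c18 at 0.72, and Prlr followed Ptgfr at 0.73. Prlr and Akr1c18 were less alike, with 0.50 over all ovaries, 0.86 at 12 weeks and 0.38 at 39 weeks. Parm1, Oxtr and Hsd11b1 were less like these over all ovaries. Their r with Prlr, Ptgfr, Akr1c18 and Sfrp4 ran from -0.31, for Hsd11b1 with Prlr, to 0.48, for Oxtr with Prlr. At 39 weeks Parm1 had 0.58 with Akr1c18, 0.53 with Ptgfr, 0.50 with Sfrp4 and 0.46 with Prlr, and Oxtr 0.58 with Prlr. At 12 weeks the r of Parm1 with the same genes ran from -0.36 to -0.03. In 39-week IVF replicate 2 Akr1c18, Ptgfr, Sfrp4 and Parm1 were at -5.47, -2.91, -1.80 and -1.19 from the group mean. Without the 2 ovaries farthest from the median of Akr1c18, Ptgfr or Sfrp4, that ovary among them, Parm1 had -0.18, 0.12 and 0.01 over both ages. For Prlr, whose 2 farthest ovaries were others, it had 0.45. A difference between the ages was not tested. All values come from the same libraries and share their depth and tissue composition.

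**Figure D3:**
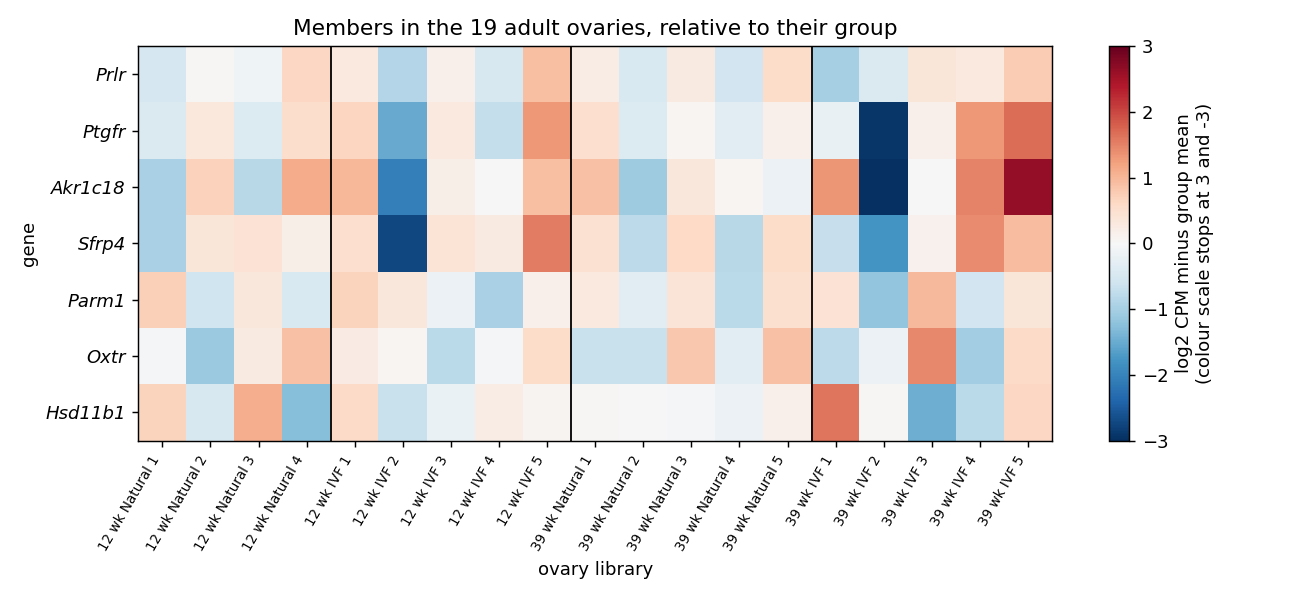
Each of the 7 genes (rows) in the 19 adult ovaries (columns), as log2 CPM minus the mean of its age and conception group, with red above and blue below that mean and the color stopping at 3 and -3. Akr1c18, Ptgfr and Sfrp4 are low together in 12-week IVF replicate 2 and 39-week IVF replicate 2, where Akr1c18 reaches -5.47, and Hsd11b1 follows another order.

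As a sign of luteal content, the summed luteal steroidogenesis list, which holds none of the 7 genes, was set beside each member over the same 19 ovaries. The sum was not particular to luteal tissue, being 21620 to 30023 CPM in Natural and 14710 to 34566 CPM in IVF cumulus cells. In 12-week ovaries it was 13696 to 22638 CPM in Natural and 11272 to 28267 CPM in IVF. Its r was 0.96 with Prlr, 0.74 with Sfrp4, 0.68 with Ptgfr and 0.47 with Akr1c18, and it was 0.40 with Oxtr, 0.23 with Parm1 and -0.26 with Hsd11b1. Other lists were as high for some members. Akr1c18 had 0.60 with adrenal markers and 0.58 with glucocorticoid and oxytocin partners, and Ptgfr 0.67 and 0.68. The adrenal sum was not particular to adrenal tissue, being 487 to 808 CPM in Natural and 703 to 1008 CPM in IVF cumulus cells. Prlr also had an r of 0.85 with endothelial markers. Parm1 was opposite to oocyte markers at -0.82 and to theca markers at -0.67, and Hsd11b1 had its highest positive r, 0.51, with oviduct and epithelium markers. These are descriptions over 19 libraries, and no cell type was separated in them.

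Among 16723 other genes, the 3 most like Prlr over these ovaries were Lrp11, Prkrir and Slc25a16, with r from 0.93 to 0.94. For Ptgfr they were Ephx2, Wisp2 and Acot4 (0.93 to 0.94), and for Akr1c18 Onecut2 (0.93), Ptgfr (0.92) and Cited4 (0.89). Sfrp4 was nearest to Epdr1 (0.96), Mcl1 (0.90) and Mid2 (0.87). Parm1 was nearest to Rnaseh2a (0.91), Frat2 (0.90) and Hs6st1 (0.89), and Oxtr to Dpysl4 (0.89), Prodh (0.88) and Palm2 (0.86). Hsd11b1 had the loosest neighbors, Hsp90aa1 (0.80), Rpgrip1l (0.78) and Ceacam1 (0.77).

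Cumulus cells at 12 weeks, from superovulated females, had Akr1c18 and Sfrp4 at CPM levels that overlapped those of whole adult ovaries, and less of the receptor genes. Total counts were 2532824 to 6345249 per library, with granulosa marker sums of 1118 to 2086 CPM and oocyte marker sums of at most 31.0 CPM. Immune markers summed to 71.6 to 2336 CPM in Natural and 148 to 4395 CPM in IVF libraries. The part of immune cells in the levels of the members was not tested. The libraries fell into a set with GC in the name (3 Natural and 3 IVF) and a set named by group (2 and 2), which the fit held as a covariate. The name of Natural library 5 shared its fields with those of IVF oocytes, and it was kept as labelled.

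In these cells Akr1c18 was at 2390, 2575, 2371, 3940 and 3354 CPM in Natural and at 2362, 3625, 2754, 6818 and 7403 in IVF. The difference lay in the set named by group, where Natural averaged 2482 CPM and IVF 7110, whereas in the GC set Natural averaged 3222 and IVF 2914. The fitted log2 fold change was 0.51 ± 0.27 (edgeR adjusted p = 0.848). In the IVF libraries of the set named by group the summed luteal steroidogenesis list was also highest of the 10, at 33749 and 34566 CPM.

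Prlr was at 57.7, 51.8, 55.3, 56.3 and 56.5 CPM in Natural cumulus cells and at 62.7, 80.7, 57.8, 60.1 and 76.3 in IVF. All 5 IVF libraries were above all 5 Natural ones, by a narrow gap of 57.7 against 57.8 CPM, and with Natural library 5 treated as IVF the groups overlapped. The log2 fold change of Prlr was 0.28 ± 0.15 (adjusted p = 0.848). Parm1 was at 56.8 to 170 CPM in Natural and 41.4 to 128 in IVF (-0.51 ± 0.21, adjusted p = 0.732), and its value was -0.09 with Natural library 5 treated as IVF. Sfrp4 was at 507 to 1330 and 735 to 1475 CPM (0.09 ± 0.24), Oxtr at 2.41 to 22.3 and 3.25 to 18.6, and Ptgfr at no more than 7.43 CPM. Hsd11b1 had counts in 5 of 10 libraries and did not pass the filter.

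In cumulus cells edgeR called 0 of the 6 members tested, against 0.00973% of all 10280 genes, and DESeq2 0 against 0.234%. There was 1 member at an unadjusted p below 0.05, Parm1, against 6.08% of all genes. Groups that did not overlap were seen for 1 of 6 members, Prlr, and for 0.759% of all genes, and with Natural library 5 treated as IVF for 0 members.

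**Figure D4:**
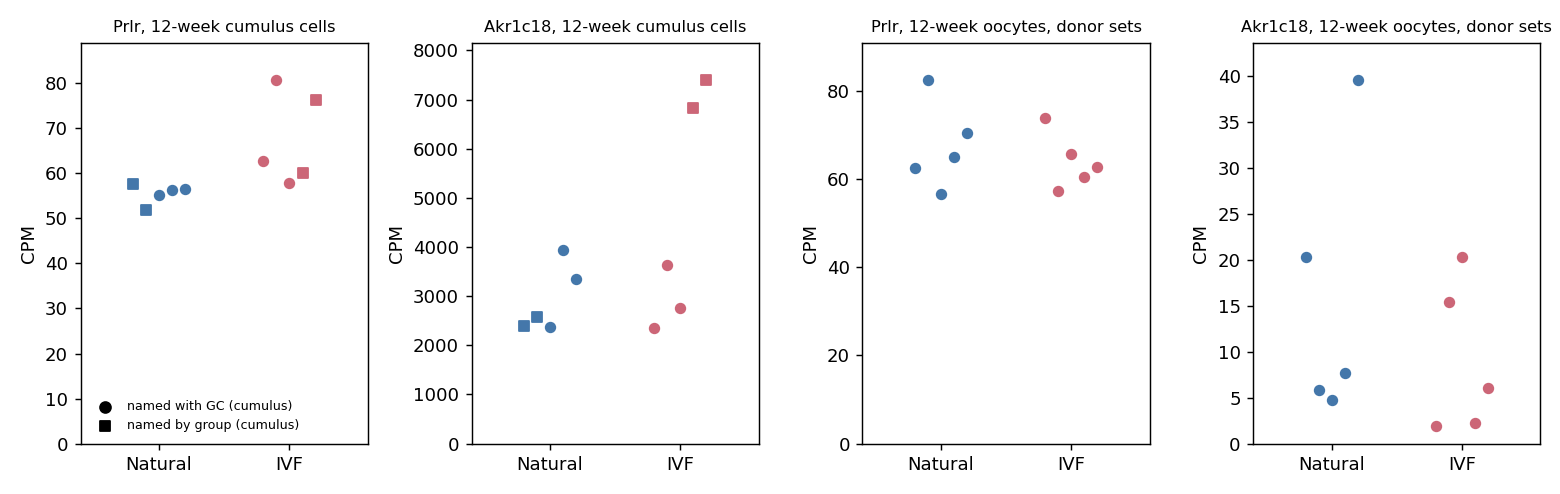
Prlr and Akr1c18 in 12-week cumulus libraries and in 12-week oocytes summed per donor set (vertical axes, CPM, from 0), with Natural in blue and IVF in red. In cumulus cells, circles are libraries of the GC set and squares those named by group, and the 2 squares of IVF stand at 6818 and 7403 CPM for Akr1c18, while in oocytes the groups overlap for both genes.

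Oocytes held 1 member with counts in every cell, the prolactin receptor gene. Summed per donor set (5 Natural and 5 IVF), Prlr was at 62.6, 82.6, 56.6, 65.0 and 70.5 CPM in Natural and at 74.0, 57.3, 65.8, 60.4 and 62.8 in IVF at 12 weeks. The groups overlapped (log2 fold change -0.07 ± 0.13, edgeR adjusted p = 0.956). Prlr counts were found in 36 of 36 Natural and 40 of 40 IVF oocytes at 12 weeks and in 9 of 9 and 10 of 10 at 39 weeks. Levels in single oocytes had a median of 61.9 CPM in Natural (31.7 to 257) and 60.3 in IVF (38.6 to 159) at 12 weeks. The highest were Natural oocytes 27, 30 and 10, at 257, 229 and 178 CPM. Their oocyte markers summed to 2183, 7590 and 1637 CPM against a Natural median of 21755. Within IVF the highest were oocytes 19, 26 and 23, at 159, 143 and 133 CPM. Oocyte markers in these summed to 4561, 7611 and 7752 CPM against an IVF median of 24103. At 39 weeks the medians of Prlr were 40.2 CPM in Natural (14.8 to 147) and 19.2 in IVF (13.7 to 43.6). No test was made at 39 weeks because no donor was named for these oocytes. Their oocyte markers summed to 2811 to 34131 CPM in Natural and 24526 to 35867 in IVF, and granulosa markers had medians of 35.1 and 69.8. The highest Prlr was in Natural oocyte 9, whose oocyte markers summed to 6400 CPM. The part of these differences in the Prlr levels was not tested.

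The other members were low and uneven in oocytes. Akr1c18 was at 4.8 to 39.6 CPM in Natural and 1.91 to 20.4 in IVF donor sets at 12 weeks, and Sfrp4 at 1.31 to 31.4 and 1.09 to 11.2. Medians over single oocytes were 2.94 and 1.95 CPM for Akr1c18 and 3.65 and 2.69 for Sfrp4, far below the highest oocytes at 150 and 103 CPM. Granulosa markers summed to at most 80.3 CPM in these donor sets, against 14319 to 29282 for oocyte markers, and RNA from attached cumulus cells was not tested as a source. Ptgfr, Parm1, Oxtr and Hsd11b1 did not exceed 4.08 CPM in any donor set. At 39 weeks Ptgfr had counts in 2 of 9 Natural and 0 of 10 IVF oocytes, and 3 counts in a library of these oocytes correspond to 0.0964 to 1.06 CPM.

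In 12-week oocytes edgeR called 0 of 6 members tested, against 0.0277% of all 14444 genes, and DESeq2 0 against 0.319%. At an unadjusted p below 0.05 there were 0 members, against 6.67% of all genes, and 0 of 6 had groups that did not overlap, against 1.39% of all.

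PGCs at E13.5 held almost none of these transcripts. Prlr was at 0.984, 3.94, 5.71 and 10.4 CPM in Natural and at 1.19, 2.86, 3.70, 2.40 and 2.27 in IVF, with overlapping groups (log2 fold change -1.07 ± 0.63, edgeR adjusted p = 1.00). It was the 1 member that passed the filter. Hsd11b1 had no count in any of the 9 libraries, where 3 counts correspond to 0.346 to 0.687 CPM, and the other 5 members did not exceed 1.34 CPM. Of all 12763 genes tested, edgeR called 0 (0%) and DESeq2 0 (0%), 2.73% had an unadjusted p below 0.05, and 1.18% had groups that did not overlap.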

How the data were processed

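Count tables of Natural and IVF mice were analysed for ovaries at E18.5, 12 and 39 weeks, PGCs at E13.5, oocytes at 12 and 39 weeks and cumulus cells at 12 weeks. The authors deposited raw counts of reads per gene name, without normalization. Their processing notes name Trimmomatic 0.32, STAR 2.3.0e, featureCounts 1.5.0 and mm10, whereas the methods name trimgalore for the cell libraries.

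Each comparison was fitted over all genes with edgeR (version 4.0.16, R version 4.3.3), using TMM scaling, the default expression filter, the quasi-likelihood test and Benjamini-Hochberg adjustment, two-sided. The SE of a log2 fold change was its size divided by the square root of F. DESeq2 (version 1.42.0) was the alternative tool. Each of the 3 ovary ages was scaled on its own, so levels set across tables are approximate. 12-week oocytes were summed per donor set, read from library names. Log2 CPM used a prior count of 2. Samples were separate records of a group, and the tests set group differences against the spread between them. Litter was not named for these samples. The paper took ovaries for RNA-seq from different litters, and its adult cohorts could hold up to 2 littermates. Every donor set shared the first field of its name with another set of its group, and such sets were treated as separate. The scripts were tested on simulated data. Figures were drawn with matplotlib (version 3.10.9).

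The members and gene lists were chosen with earlier results of these data known. Named genes were the 7 members, the 3 nearest genes of each by Pearson r, context genes called in a comparison, and Star, Cyp11a1, Hsd3b1, Lhcgr, Scarb1, Hsd11b2, Oxt, Stat5a, Stat5b, Socs2 and Cish. Of 151 sample records, 143 had a column, 4 repeat records of cumulus libraries were counted once, and 4 records of 39-week cumulus cells were not analysed here. Alternatives were DESeq2, RLE size factors, a fit with no expression filter, fits without 1 sample at a time, a replicate block, cumulus fits without the library set or with library 5 as IVF, and single oocytes as samples.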

Additional observations from a re-analysis of the deposited data

How the results depend on the processing

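Of the 7 member counts, that of 39-week ovaries changed from 0 to 1 with DESeq2 and ranged from 0 to 1 when single ovaries were left out, the 1 being Hsd11b1 (without IVF replicate 1). Its log2 fold change there ranged from -2.10 to -1.28 over the left-out ovaries. RLE size factors and no filter on low counts left all member counts and directions as they were. Leaving out samples turned 12 fold changes, which ranged at E18.5 from -0.17 to 0.26 for Ptgfr, at 12 weeks from -0.15 to 0.37 for Prlr, -0.21 to 0.44 for Ptgfr, -0.62 to 0.13 for Sfrp4 and -0.29 to 0.16 for Parm1, in oocytes from -0.13 to 0.0089 for Prlr, -1.02 to 0.97 for Ptgfr and -1.05 to 0.43 for Parm1, in cumulus cells from -0.73 to 0.23 for Ptgfr, -0.10 to 0.22 for Sfrp4 and -0.39 to 0.28 for Oxtr, and between the ages from -0.82 to 0.037 for Hsd11b1. Without the library set, Oxtr in cumulus cells was at -0.11. The cause was not tested.

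Whether the replicate numbers paired the samples was not settled, and the main fits used no pairing. Same-numbered deviations correlated above 0.1 in 0 of 4 pairs at E18.5, 2 of 4 at 12 weeks, 3 of 5 at 39 weeks, 3 of 4 in PGCs and 1 of 5 in cumulus cells. The most similar sample of the other group had the same number for 6 of 10 samples at 39 weeks and 5 of 8 in PGCs. This held for 0 of 8 at E18.5, 3 of 8 at 12 weeks and 0 of 10 in cumulus cells. With the replicate number as a block, 0 members were called in each of these tables, Prlr and Ptgfr at 12 weeks were at -0.15 and -0.36, Hsd11b1 at E18.5 was at 0.069, and the calls over all genes went from 891 to 3 at E18.5 and from 45 to 24 at 39 weeks. With single oocytes as samples the calls over all genes went from 4 to 746, and with no filter those in cumulus cells went from 1 to 104, with 0 members in either.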
